A study of Homo sapiens with 12 samples.

Results

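D11 is a clone of the papillary thyroid carcinoma cell line TPC1 that carries a deletion of 20 nucleotides in one allele of DICER1, and it was compared here with the parental TPC1 cells across all genes. The comparison used the 3 D11 libraries, labelled DICER (+/-), and the 3 TPC1 libraries, which are wild type, out of 12 RNA-seq libraries in the series. The other 6 libraries come from the clones WB1 and TD5, made with the same guide and also DICER (+/-), and serve here to show where D11 differs from them. They also entered the filter and the shared estimate of the spread (with only the 6 libraries in the fit, 457 genes rose and 289 fell of 15604 tested). Parental cells and clones were kept in RPMI with serum and share the RET rearranged background of a cultured tumour line rather than of thyroid tissue. D11 grew from 1 edited cell sorted for the mCherry marker of the editing plasmid, after a transient transfection that the TPC1 libraries are not labelled as having had. Its 3 libraries therefore repeat 1 clone, nothing in the labels says that they came from separate cultures, and the p-values measure the spread between these samples, which may be technical. An effect of the DICER1 allele and a property of the founder cell cannot be told apart within this comparison.

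Dicer is the cytoplasmic ribonuclease III that cuts hairpin precursors into mature microRNAs (miRNAs), which Argonaute proteins then hold and use to find target transcripts. Drosha and its partner DGCR8 release these hairpins from longer transcripts in the nucleus, and exportin 5 carries them out. A cell with 1 working copy of the gene still has Dicer, and inherited loss of one copy is known for a tumour predisposition that includes the thyroid. The libraries hold polyadenylated RNA, so mature miRNAs were not measured.

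The guide used to make D11 had 1 exact match on chromosome 14, at chr14:95115685-95115707 of GRCh38 on the plus strand. Other chromosomes and inexact matches were not searched. DICER1 lies on the minus strand, and the match falls in exon 11 of 27, which is all coding. Both sequences are shown because they define the edited site. The capitals mark the NGG motif in the guide, and in the exon, which is printed in the direction of the gene from chr14:95115667-95115821, they mark the bases that pair with the guide strand and its motif.
guide: gccgtgttgattgtgactcgTGG
DICER1 exon 11: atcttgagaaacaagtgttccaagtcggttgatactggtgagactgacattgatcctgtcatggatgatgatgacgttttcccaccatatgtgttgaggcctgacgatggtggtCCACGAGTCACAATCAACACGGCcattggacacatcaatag
The position at which Cas9 usually cuts lies after 1872 of the 5766 coding bases. A loss of 20 nucleotides there shifts the reading frame. The deleted bases themselves are not printed, because the sources used here give the size of the deletion and not its ends.

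Each value below is a number of scaled reads, that is reads on a gene per 20000000 aligned reads of the library. From the gaps between the whole numbers, 14580000 to 16795000 reads were estimated for the D11 libraries and 13740000 to 21025000 for TPC1, so 3 reads stood for 2.85 to 4.37 scaled reads. PAX8, the thyroid transcription factor, had 7248 to 8549 scaled reads in TPC1 and 7547 to 8088 in D11. The epithelial keratin KRT8 had 13804 to 16274 in TPC1 and 11704 to 12833 in D11, while EPCAM and CDH1, 2 of the 6 epithelial markers, were at or under 3 reads in all 6 libraries. Thyroglobulin had 14 to 19, and NKX2-1, TSHR and the iodide carrier SLC5A5 were at 0 in all 6 libraries, so these markers of differentiated thyroid cells were absent from both lines. The endothelial and leukocyte lists, of 4 and 5 markers, summed to 9 or less in every library. Fibroblast markers summed to 259 to 367 in TPC1 and 168 to 206 in D11, with DCN at 0.

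Of 16027 genes tested, 463 rose and 312 fell in D11 by the rule used throughout, an adjusted p under 0.05 in limma and a difference of at least 1.5-fold on the log2(value per 1000000 + 1) scale. These are 2.89% and 1.95% of the genes tested, or 4.84% together. The scale understates the change of genes with few reads. The largest rises were in EGR1, TENM2, PRAME and the miRNA host transcript MIR222HG. The largest falls were in EMC10, TGFBI, SLPI, MYD88 and HTATIP2, and they were larger than the rises: 31 genes rose and 103 fell by at least 2-fold. The median difference of all genes was 0.05 on the log2 scale, with D11 the higher. Smaller differences were common, since 33.3% of the genes passed an adjusted p of 0.05 with no minimum fold. The 3 D11 libraries lay entirely above the 3 TPC1 libraries for 29.5% of genes and entirely below for 21.2%, 50.6% in all, so a lack of overlap alone set few genes apart.

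**Figure D1:**
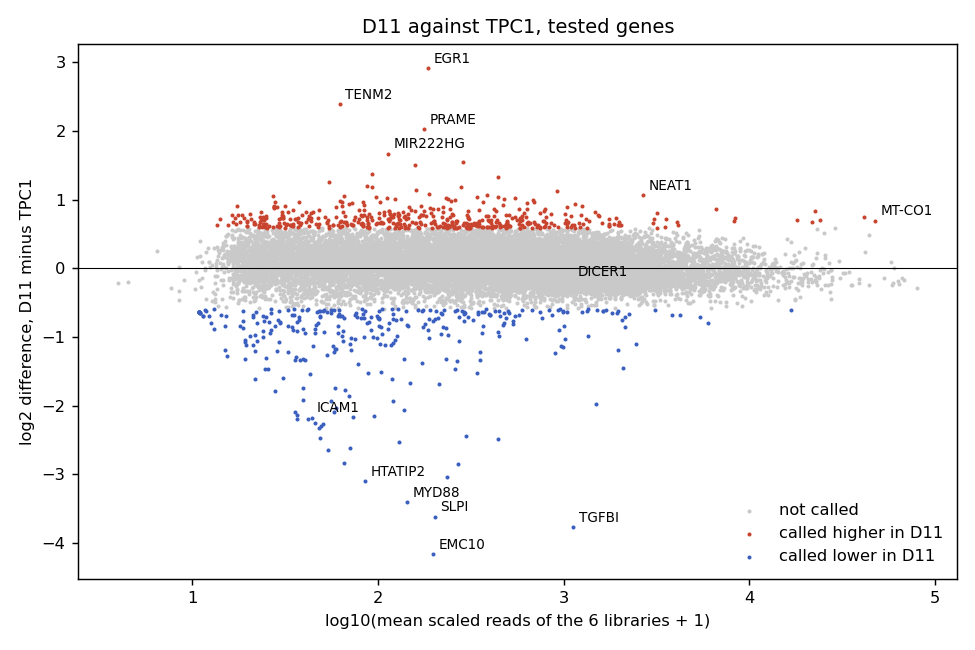
Log2 difference of D11 minus TPC1 (vertical axis) against the log10 of the mean scaled reads of the 6 libraries plus 1 (horizontal axis), with 1 point per tested gene, red where called higher and blue where called lower in D11. The lowest points, EMC10 at -4.17 and TGFBI at -3.77, lie farther from 0 than the highest, EGR1 at 2.91, and DICER1 lies among the genes not called.

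DICER1 itself, the edited gene, was lower in D11 by less than the threshold. It had 1360, 1129 and 1101 scaled reads in TPC1 and 977, 1051 and 1093 in D11, so the groups just failed to overlap. The D11 mean was 86.9% of the TPC1 mean, and the log2 difference was -0.19 (SE 0.10, adjusted p = 0.138). An exact permutation test of the 6 values, two-sided, gave p = 0.1, the smallest that 3 against 3 allows. The value depended on the library TPC1 replicate 1, without which it was -0.10 (adjusted p = 0.471), and on the scaling: it was -0.43 (adjusted p = 0.000121) after a correction for transcript GC content, -0.34 (adjusted p = 0.00342) after one for transcript length and -0.25 (adjusted p = 0.0456) with median-of-ratios scaling, none reaching 1.5-fold. Of 47 tested genes within 5 Mb of DICER1, 4 had a lower difference than DICER1, and their median was 0.12. TD5 had 643, 627 and 809 scaled reads and WB1 had 881, 939 and 815, so the D11 libraries were the highest of the clones. The D11 minus TD5 difference was 0.58 (adjusted p = 0.000657), and the D11 minus WB1 difference of 0.24 did not pass the test (adjusted p = 0.178).

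Of 23 tested genes of the miRNA pathway, DICER1 included, 0 were called in either direction by limma or by limma-voom, against 4.84% of all genes. With no minimum fold, 12 of the 23 passed an adjusted p of 0.05 and 14 an unadjusted one, and 33.3% of all genes passed the adjusted p. The list's median was 0.13, beside 0.05 for all genes, and -0.06 after the GC correction, so its direction depended on that correction. Among the enzymes and carriers before Dicer, DROSHA had 1575, 1572 and 1601 scaled reads in TPC1 and 1404, 1440 and 1381 in D11, a difference of -0.17 (SE 0.06, adjusted p = 0.0408). XPO5, which encodes exportin 5, differed by -0.18 (adjusted p = 0.0650) and DGCR8 by 0.13 (adjusted p = 0.324). TARBP2, a double-stranded RNA binding partner of Dicer, had the lowest difference of the list at -0.37 (SE 0.09, adjusted p = 0.00715), with 644 to 750 scaled reads in TPC1 and 512 to 555 in D11. Among the Argonautes, which hold the mature miRNA, AGO4 had the highest at 0.45 (SE 0.12, adjusted p = 0.0118), with 223 to 255 against 327 to 344. AGO2, the Argonaute that can cut its target, had 2438 to 2802 in TPC1 and 2942 to 3189 in D11, a difference of 0.25 (adjusted p = 0.0119), and AGO1 one of -0.07 (adjusted p = 0.411). RAN (0.01), PRKRA (0.10), ZCCHC6 (0.14) and TSNAX (0.28) changed sign after the GC correction, so no direction is given for them. The D11 values of DROSHA and TARBP2 lay below every TPC1 value, and those of AGO2 and AGO4 above, all by less than 1.5-fold.

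Some transcripts from which miRNAs are cut rose. Of 21 tested host genes in the list, 3 rose and 0 fell, which is 14.3% against the 2.89% of all genes that rose, and the list's median was 0.12. MIR222HG, which is not in that list and is named for the size of its change, held 38, 42 and 50 scaled reads in TPC1 and 160, 184 and 202 in D11. The difference of 1.67 (SE 0.16, adjusted p = 2.41e-06) was the fourth largest rise by the naming rule. MIR34AHG, the host of the p53 target miR-34a, went from 41 to 57 in TPC1 to 86 to 118 in D11, a difference of 0.85 (SE 0.15, adjusted p = 0.000761). MIR100HG differed by 0.76 (SE 0.18, adjusted p = 0.00600) and MIR155HG by 0.62 (SE 0.22, adjusted p = 0.0375). The MIR155HG call rested on few reads, 12 to 28 in TPC1 and 36 to 39 in D11. It was lost without any 1 of 5 libraries (TPC1 replicates 1 and 3 and each D11 replicate) and after the GC correction (0.34). MIR100HG dropped under 1.5-fold without TPC1 replicate 3 (0.54) and after the GC correction (0.52). With a pseudocount of 4, 0 of the 21 were called.

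The mature miRNAs encoded within these hosts are shown because they name what each transcript can give. The sequences are from RefSeq on GRCh38.p14, written 5′ to 3′ with the seed, bases 2 to 8, in capitals. The miR-221 and miR-222 products share a seed, and each of the other 5 has its own.
miR-221-3p (MIR222HG): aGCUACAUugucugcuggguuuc
miR-222-3p (MIR222HG): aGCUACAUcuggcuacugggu
miR-34a-5p (MIR34AHG): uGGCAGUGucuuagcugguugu
miR-155-5p (MIR155HG): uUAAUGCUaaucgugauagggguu
miR-100-5p (MIR100HG): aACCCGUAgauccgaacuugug
let-7a-5p (MIR100HG): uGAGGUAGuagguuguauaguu
miR-125b-5p (MIR100HG): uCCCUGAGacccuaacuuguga
Levels of these miRNAs cannot be read from their hosts. Of 16 tested let-7 targets, 1 rose and 0 fell, which is 6.25% against 4.84% of all genes called, and the median was 0.02. The one was HMGA2, a chromatin protein of embryonic and tumour cells, with 1217, 1383 and 1341 scaled reads in TPC1 and 2051, 2033 and 2471 in D11 (difference 0.72, SE 0.15, adjusted p = 0.00270). HMGA2 overlaps RPSAP52 on the other strand, which rose by 0.77, and the strand setting of the counting is not given in the sources used here. IGF2BP3 (0.52, adjusted p = 0.00186) was under 1.5-fold.

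**Figure D2:**
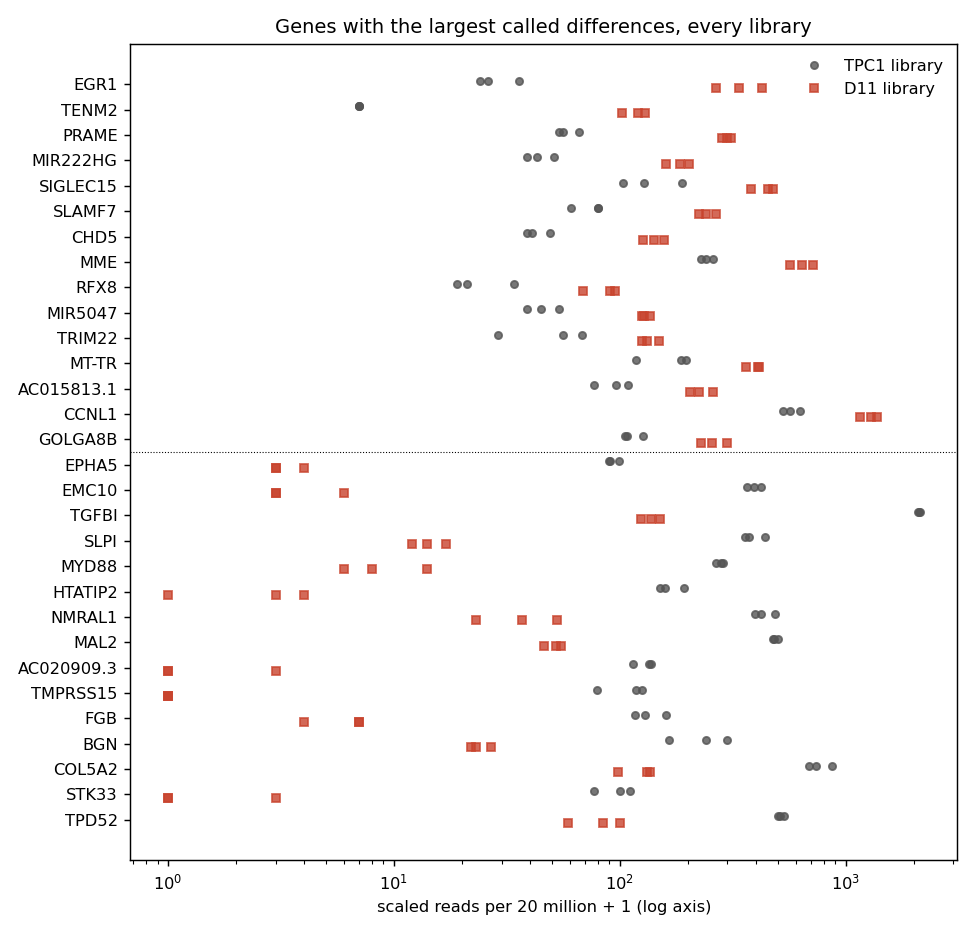
Scaled reads per 20000000 plus 1 on a log axis for the 15 largest called rises (above the dotted line) and 15 largest called falls by the naming rule, with 1 point per library, grey circles for TPC1 and red squares for D11. No gene shown has a D11 library within the range of its TPC1 libraries, which the naming rule required, and several of the lower genes have D11 libraries at 0 to 5 scaled reads.

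EGR1, an immediate early transcription factor that growth factor signals switch on through serum response factor, had the largest rise. Its values were 23, 35 and 25 scaled reads in TPC1 and 337, 265 and 427 in D11, 12.4 times the TPC1 mean. The difference was 2.91 (SE 0.21, adjusted p = 3.41e-08). WB1 had 140, 189 and 143 and TD5 349, 165 and 261. D11 differed from WB1 by 1.02 (adjusted p = 0.0038) and from TD5 by 0.42 (adjusted p = 0.15). EGR1 was 1 of 24 tested immediate early genes to be called, which is 4.17% against 4.84% of all genes, and 0 of the list fell. FOS differed by 0.58 and KLF6 by 0.52 with adjusted p values of 0.00755 and 0.000195, both under 1.5-fold, while JUN (0.09), ATF3 (-0.0012) and NR4A1 (-0.13) did not pass the adjusted p.

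The 250 bases before the EGR1 start, chr5:138465229-138465478 of GRCh38.p14 on the plus strand, are shown with their CArG boxes, the sites of serum response factor, in capitals.
EGR1 upstream: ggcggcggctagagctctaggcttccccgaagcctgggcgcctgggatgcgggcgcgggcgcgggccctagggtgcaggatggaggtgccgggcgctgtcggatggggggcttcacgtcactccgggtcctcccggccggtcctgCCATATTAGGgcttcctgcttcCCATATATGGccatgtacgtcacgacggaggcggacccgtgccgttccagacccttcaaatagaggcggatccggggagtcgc
Of 35116 RefSeq upstream windows of this length 1.16% held at least 1 such box, which reads alike on both strands, and 0.0313% held at least 2. Among the 19 tested immediate early genes with a window, 2 held one, EGR1 and SRF, and SRF differed by -0.13. A match is a description of the letters only.

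TENM2, a teneurin adhesion receptor of neurons, had 6 scaled reads in each TPC1 library and 101, 120 and 129 in D11, 19.4 times as many. The difference was 2.39 (SE 0.12, adjusted p = 5.40e-10). PRAME, a cancer-testis antigen and the only tested member of that list of 29, had 55, 53 and 65 in TPC1 and 311, 282 and 296 in D11 (2.03, SE 0.12). SIGLEC15 (1.55), SLAMF7 (1.51) and MME (1.33), which encodes the surface peptidase neprilysin, rose too. MME had 229 to 259 scaled reads in TPC1 and 569 to 716 in D11. CHD5, a chromatin remodeller, had 38 to 48 in TPC1 and 126 to 156 in D11 (1.38, SE 0.14, adjusted p = 3.11e-06). TRIM22, an interferon-stimulated ubiquitin ligase, had 67, 55 and 28 in TPC1 and 149, 124 and 131 in D11 (1.18, SE 0.19). It was the only 1 of 31 tested interferon-stimulated genes that rose, and OAS1 was the only one that fell (-0.92), with a list median of -0.02.

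Some of these genes did not follow the same order in the other clones, while SIGLEC15 and MME were above every TPC1 library in both. PRAME had 921, 1017 and 1012 scaled reads in WB1 and 5, 9 and 16 in TD5. The D11 libraries lay between them, apart from both. TENM2 was at 0 in all WB1 libraries and at 2 to 3 in TD5, so the D11 libraries were far above those of every other line. CHD5 had 16 to 30 scaled reads in WB1 and 9 to 13 in TD5, and TRIM22 had 19 to 33 and 8 to 16, all under the D11 values. SLAMF7 was at 330 to 402 in WB1, above D11, and at 70 to 90 in TD5. SIGLEC15 had 534 to 702 in WB1 and 324 to 593 in TD5, and MME had 771 to 923 and 422 to 704. For SIGLEC15 and MME neither difference of D11 from WB1 or TD5 passed the adjusted p. Between the clones themselves, 2.85% of all genes were called in D11 against WB1 and 3.99% in D11 against TD5. These comparisons share the D11 libraries with the one against TPC1.

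Among the lower genes were several with almost no reads left in D11. EMC10, a subunit of the membrane complex that inserts proteins into the endoplasmic reticulum (GRCh38 chr19:50476400-50490871, plus strand), had 365, 392 and 421 scaled reads in TPC1 and 2, 2 and 5 in D11. The difference was -4.17 (SE 0.12, adjusted p = 1.63e-13), with WB1 at 52 to 65 and TD5 at 8 to 12. AC020909.3, a long noncoding RNA gene inside EMC10 on the other strand, fell by 2.84, and their reads may not be separable. EMC1, another subunit, had 3125, 3091 and 2973 in TPC1 and 1106, 1107 and 1097 in D11 (-1.46, SE 0.06, adjusted p = 9.065e-12). The other 8 tested subunits were not called and ranged from -0.17 to 0.33, so 20% of the 10 were called, against 4.84% of all genes. MRTO4, a ribosome assembly factor that starts 253 bases from EMC1 in the opposite direction, had 3336 to 3360 in TPC1 and 1430 to 1632 in D11 (-1.11, SE 0.08). In WB1 and TD5 the lowest library of EMC1 was at 2419 and the lowest of MRTO4 at 2578.

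TGFBI, a secreted matrix protein named for its induction by TGF-beta, had the highest TPC1 mean of the 15 largest falls by the naming rule. It had 2113, 2130 and 2099 scaled reads in TPC1 and 150, 137 and 123 in D11, 15.5 times fewer (-3.77, SE 0.07, adjusted p = 5.97e-16). WB1 (2065 to 2389) and TD5 (1704 to 1805) were close to TPC1. SLPI, an inhibitor of leukocyte proteases, had 371, 357 and 440 in TPC1 and 11, 16 and 13 in D11 (-3.62, SE 0.10). MYD88, the adaptor through which Toll-like and interleukin 1 receptors reach NF-kB, had 266, 287 and 281 in TPC1 and 7, 5 and 13 in D11, 33.4 times fewer (-3.40, SE 0.12, adjusted p = 6.16e-12). NMRAL1, an NADPH sensor, had 395 to 484 in TPC1 and 22 to 52 in D11 (-3.03, SE 0.15). For all 4 genes the lowest WB1 or TD5 library was at least as high as 231 scaled reads, so their near loss was particular to D11 among these 4 lines. The D11 minus WB1 and D11 minus TD5 differences lay between -3.89 and -3.04, with adjusted p values of at most 1.90e-10.

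Other matrix genes fell as well. Of 18 tested collagens, 5 fell and 1 rose, which is 33.3% against 4.84% of all genes, with a median of -0.31. COL5A2, a chain of fibrillar collagen V, had 868, 742 and 689 scaled reads in TPC1 and 135, 97 and 131 in D11 (-2.48, SE 0.11, adjusted p = 1.50e-10). COL4A4, a basement membrane chain, had 136 to 189 in TPC1 and 13 to 32 in D11 (-2.14, SE 0.16). COL4A1, the main basement membrane chain and the most abundant of those that fell, had 6418 to 7155 against 3817 to 4521 (-0.71, SE 0.06). COL7A1 (-0.73) and COL16A1 (-0.59) fell and COL13A1 (0.66) rose. COL16A1 dropped under 1.5-fold after the GC correction (-0.48) and without TPC1 replicate 3 (-0.48), D11 replicate 1 (-0.56) or D11 replicate 3 (-0.54). BGN, the proteoglycan biglycan, had 239, 165 and 297 in TPC1 and 22, 26 and 21 in D11 (-2.53, SE 0.17). SERPINH1, the collagen chaperone, fell by 0.67, under 1.5-fold after the GC correction (-0.55) and without D11 replicate 2 (-0.58). Fibroblast markers moved beside these genes: LUM fell to 0 in all D11 libraries from 63 to 78, and PDGFRB had 112 to 192 in TPC1 and 95 to 135 in D11, while COL1A1 stayed at 66 to 97 over the 6 libraries. Their part in the collagen result was not tested.

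Of 24 tested genes of the TGF-beta list, TGFBI included, 3 fell and 0 rose, which is 12.5% against 1.95% of all genes, with a median of 0.01. The others that fell were BAMBI, a decoy receptor (-0.71, SE 0.14), and the ligand TGFB2 (-0.68, SE 0.13), which had 593 to 875 scaled reads in TPC1 and 400 to 474 in D11 and dropped under 1.5-fold without TPC1 replicate 1 (-0.52). SMAD7 (0.22), an inhibitor that the pathway induces, did not pass the adjusted p.

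**Figure D3:**
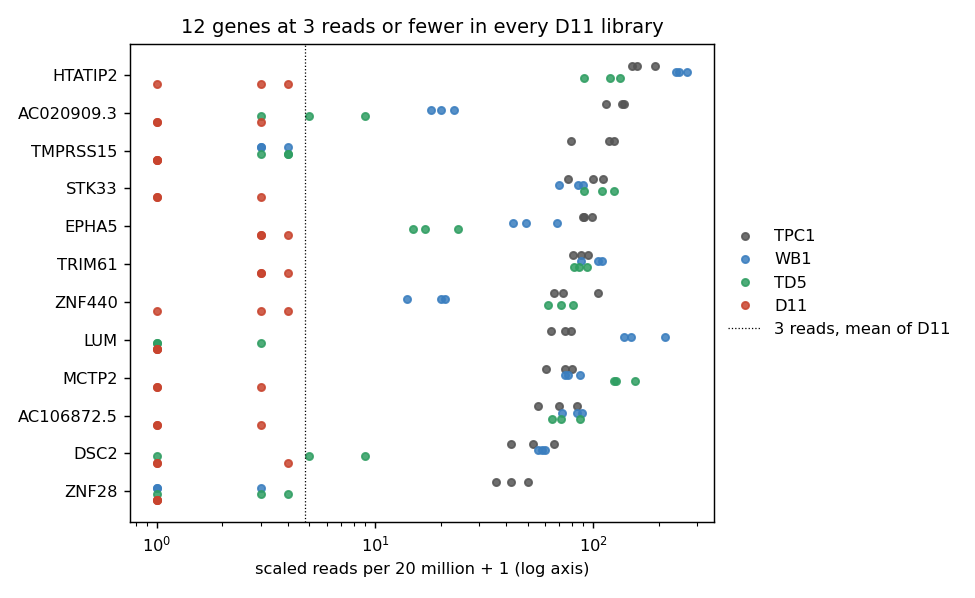
Scaled reads per 20000000 plus 1 on a log axis for the 12 genes at 3 reads or fewer in every D11 library and at 30 scaled reads or more in every TPC1 library, with 1 point per library and 1 colour per line; the dotted line marks 3 reads. The D11 points lie at the left edge for all 12 genes, and in 9 of them both WB1 and TD5 have at least 1 library to the right of the line.

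By a rule chosen after the values were seen, 12 genes had 30 scaled reads or more in each TPC1 library and 3 reads or fewer in each D11 library, and 0 genes did the reverse. Set against 3 reads, they were at least 11 to 44-fold lower in D11. HTATIP2, an oxidoreductase also known as TIP30, led with 158, 150 and 191 scaled reads in TPC1 and 2, 3 and 0 in D11, at least 44-fold lower (adjusted p = 4.41e-11). WB1 (239 to 269) and TD5 (90 to 131) kept it. STK33, a kinase, was at least 25.1-fold lower and stood at 69 to 123 in both other clones, and MCTP2, TRIM61 and AC106872.5 were at 64 to 155 in those clones. EPHA5, an ephrin receptor, had 90, 98 and 89 in TPC1 and 2, 2 and 3 in D11 with intermediate values in WB1 (42 to 67) and TD5 (14 to 23). TMPRSS15 and ZNF28 were at the floor in all 3 clones, and LUM in D11 and TD5.

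The 250 bases before the RefSeq start of HTATIP2 and MYD88 are shown because these genes lost nearly all reads in D11 and kept them in the other clones. The GENCODE starts of the 2 genes, 20363685 and 38138552, lie inside these windows, so part of each window is within the gene by that annotation. The windows are chr11:20363464-20363713 and chr3:38138411-38138660 of GRCh38.p14, both on the plus strand, with CG dinucleotides, the bases that DNA methylation can mark, in capitals.
HTATIP2 upstream: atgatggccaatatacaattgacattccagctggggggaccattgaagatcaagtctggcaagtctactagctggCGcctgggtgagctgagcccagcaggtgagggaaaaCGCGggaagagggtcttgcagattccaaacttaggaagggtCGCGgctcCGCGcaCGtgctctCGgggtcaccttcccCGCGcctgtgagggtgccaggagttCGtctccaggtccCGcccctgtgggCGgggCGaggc
MYD88 upstream: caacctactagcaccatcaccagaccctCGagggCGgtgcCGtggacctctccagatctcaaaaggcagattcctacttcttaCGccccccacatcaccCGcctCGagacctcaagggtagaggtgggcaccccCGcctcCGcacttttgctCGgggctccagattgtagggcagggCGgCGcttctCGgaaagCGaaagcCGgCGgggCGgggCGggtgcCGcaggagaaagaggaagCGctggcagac
They hold 15 and 19 CG dinucleotides, between the median of 11 and the upper quartile of 23 over all 35116 windows. Of the 12 genes at the floor 7 had a window, with counts from 0 to 26. Methylation was not measured.

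Of 22 tested NF-kB targets, 5 fell and 0 rose, which is 22.7% against the 1.95% of all genes that fell, with a median of -0.20 that was the same after the GC correction. ICAM1, the leukocyte adhesion molecule, had 95, 60 and 95 scaled reads in TPC1 and 3, 5 and 0 in D11 (-2.17, SE 0.16, adjusted p = 5.07e-08). NFKB2, the p100 subunit, had 1479, 1148 and 1522 in TPC1 and 714, 675 and 595 in D11 (-1.04, SE 0.10), TRAF1 fell by 0.69 and RELB by 0.67. RELB dropped under 1.5-fold after the GC correction (-0.56) and without TPC1 replicate 3 (-0.55) or D11 replicate 3 (-0.56). IL6 fell by 0.62, and its call was lost without TPC1 replicate 1 (-0.49) and without D11 replicate 3 (-0.53). NFKB1 (-0.01), NFKBIA (-0.22), CXCL8 (-0.23) and BIRC3 (-0.02) were not called. The cytokine IL32 fell by 1.17 (SE 0.25), with 49 to 127 in TPC1 and 19 to 36 in D11. In WB1 and TD5, NFKB2 had 682 to 805 scaled reads, below every TPC1 library. ICAM1 had 4, 7 and 3 in WB1 and 7, 2 and 4 in TD5, and D11 did not differ from either (adjusted p = 0.744 and 0.665 in limma). MYD88 had 280 to 355 in WB1 and 231 to 286 in TD5. A link between these genes and the fall of MYD88 in D11 was not tested.

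Of 30 tested targets of p53, the damage-activated transcription factor, 6 rose and 0 fell, which is 20% against 2.89% of all genes, and the median was 0.28. TP53INP1 had 528, 438 and 428 scaled reads in TPC1 and 918, 820 and 1041 in D11 (0.96, SE 0.17, adjusted p = 0.000715). EDA2R had 265 to 308 against 517 to 596 (0.87, SE 0.10). RRM2B, a ribonucleotide reductase subunit, MDM2, the ubiquitin ligase of p53, BBC3, which encodes the cell death protein PUMA, and FAS, a death receptor, rose by 0.77, 0.71, 0.71 and 0.69. MDM2 had 2683, 2091 and 2173 in TPC1 and 3471, 3945 and 3966 in D11. CDKN1A, which encodes the cell cycle inhibitor p21, differed by 0.35, with 2354 to 2936 in TPC1 and 3197 to 3622 in D11, and BAX by 0.03. After the GC correction the median was 0.24 and 3 of the 30 were called, RRM2B (0.55), MDM2 (0.47) and FAS (0.42) no longer. In WB1 TP53INP1 had 463 to 642 and in TD5 297 to 574, and the D11 differences from both passed the threshold.

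Of 40 S phase and replication genes and 40 G2/M genes, 0 were called in either direction by limma or by limma-voom, against 4.84% of all genes, with medians of 0.16 and 0.05, the second turning to -0.07 after the GC correction. At an adjusted p of 0.05 with no minimum fold, 15 and 11 of them passed, against 33.3% of all genes, and 18 and 13 at an unadjusted one. The G1/S cyclin CCNE2 rose by 0.60, with 876 to 1073 scaled reads in TPC1 and 1313 to 1600 in D11, and was under 1.5-fold after the GC correction (0.33), with median-of-ratios scaling (0.54) and without TPC1 replicate 2 (0.52), D11 replicate 2 (0.57) or D11 replicate 3 (0.54).

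RNAs made in mitochondria and RNAs kept in the nucleus were higher in D11. Of 37 mitochondrially encoded genes, 25 rose and 0 fell, 67.6% against 2.89% of all genes, with a median of 0.73. MT-CO1, the catalytic subunit of cytochrome oxidase, had 34603, 40477 and 34594 scaled reads in TPC1 and 59383, 57108 and 60545 in D11 (0.69, SE 0.08, adjusted p = 9.96e-06). MT-ND4 and MT-ND5, subunits of complex I, rose by 0.74 and 0.84. Among 22 mitochondrial tRNA genes 16 rose, MT-TR the most (1.18), while the ribosomal RNAs MT-RNR1 (0.30) and MT-RNR2 (0.48) were not called. Nuclear genes of the same complexes did not follow, with medians of -0.05 in 62 respiratory chain subunits and -0.07 in 77 mitochondrial ribosomal proteins. Of these nuclear genes 0 were called by limma or by limma-voom, against 4.84% of all genes. With no minimum fold, 15 and 20 passed an adjusted p of 0.05, against 33.3% of all genes, and 23 and 30 an unadjusted one. After the GC correction the mitochondrial median was 0.53 and 13 of the 37 were called, MT-CYB (0.57) and MT-ND2 (0.52) no longer. More mitochondrial RNA per cell and less of other RNA cannot be told apart here, as in any bulk sample. The medians of WB1 minus TPC1 and TD5 minus TPC1 over these genes were 0.66 and 0.35, from the same TPC1 libraries.

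Of 16 nuclear-retained RNAs, 7 rose and 0 fell, 43.8% against 2.89% of all genes, with a median of 0.47 (0.29 after the GC correction, 6 called). NEAT1, the scaffold of paraspeckles, had 1704, 1486 and 2024 scaled reads in TPC1 and 3501, 3807 and 3577 in D11 (1.06, SE 0.10, adjusted p = 2.41e-06). CCNL1, a cyclin of splicing whose transcripts often keep introns, had 526 to 625 against 1161 to 1371 (1.13, SE 0.09). CCNL2 rose by 0.83 and MALAT1 by 0.84, the latter under 1.5-fold after the GC correction (0.56). GOLGA8A and GOLGA8B rose by 1.03 and 1.08, but they are near-identical copies whose reads may be split. Among small RNA genes, which poly(A) selection captures poorly, 10 of 69 tested snoRNA genes rose and 0 fell. MIR5047, one of the largest rises at 1.20, lies inside DDX5 on the same strand, whose own difference was 0.16 and -0.04 after the GC correction, so its reads may be those of its host.

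Receptors and adhesion genes gave few calls per family. Of 14 tested Eph receptors and ephrins, 3 fell and 0 rose, against 1.95% of all genes that fell, with a median of -0.26: EPHA5, EFNB1 (-0.77) and EPHB1 (-0.72). GFRA1, the GDNF coreceptor of RET, had 1351, 1174 and 1275 scaled reads in TPC1 and 472, 585 and 526 in D11 (-1.24, SE 0.11), the only one of 15 tested RET signalling genes to be called (6.67%, against 4.84% of all genes), RET itself differing by 0.22. FOXE1, a thyroid transcription factor, fell by 0.95 (SE 0.14), from 280 to 316 in TPC1 to 123 to 171 in D11, the only one of 10 tested thyroid differentiation genes to be called, again against 4.84%. Of 17 tested Notch genes NOTCH3 fell by 1.01 and HES2 rose by 0.62, 11.8% called, with a median of 0.11. Of 25 tested Wnt genes TCF7L1, a Wnt effector, fell by 0.94 and LGR5 rose by 0.65, 8% called, with a median of 0.07. Both shares stand against 4.84% of all genes, and both rises were under 1.5-fold with a pseudocount of 4 (0.30 and 0.54). Both calls were also lost with no filter on low values and after the length correction. HES2 lost its call with median-of-ratios scaling (0.58), and LGR5 after the GC correction (0.47). Leaving out TPC1 replicate 1, D11 replicate 2 or D11 replicate 3 removed both calls. HES2 was at 0.46 without TPC1 replicate 2, and LGR5 at 0.39 without TPC1 replicate 3, neither called. Of 20 integrins and laminins 3 rose, which is 15% against 2.89% of all genes, ITGA2 (0.78), ITGA11 (0.71) and ITGA6 (0.66), the last under 1.5-fold after the GC correction (0.46). CLDN1, a tight junction claudin with 4350 to 5025 in TPC1 and 2813 to 3087 in D11, fell by 0.67, and PVR, the poliovirus receptor, fell by 0.79 from 7453 to 7832 to 4297 to 4489.

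Genes of the clustered protocadherins, neuronal adhesion molecules, fell in 16 of 40 cases, 40% against 1.95% of all genes, with a median of -0.32. Of these 15 are in the alpha cluster, whose members share their last exons, and 7 of them have identical values, 17, 13 and 19 scaled reads in TPC1 and 2, 3 and 5 in D11, so they cannot be counted as separate genes. With a pseudocount of 4 in place of 1, 0 of the 40 were called. PCDHB2, of the beta cluster with no shared exons, had 102 to 126 against 41 to 72 (-0.80, SE 0.15).

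The genes that the study took to RT-qPCR were chosen on these samples, so their direction is not independent evidence. The paper took them from genes that changed in common in every DICER (+/-) clone. All 8 of them that were tested here fell in D11, and all 8 also lay below every TPC1 library in WB1 and TD5. CASP10 was lower there than in D11, with 0 to 3 scaled reads in WB1 and 2 to 6 in TD5, while EPHA5 was higher there. Beside ICAM1 and EPHA5, CASP10, a caspase of death receptors, had 57, 55 and 63 scaled reads in TPC1 and 9, 11 and 16 in D11 (-1.30, SE 0.13). LINC01234, a long noncoding RNA, had 112, 90 and 111 against 16, 5 and 7 (-2.10). PNMA2 had 66 to 83 against 3 to 5 (-1.92) and SMIM10 35 to 56 against 3 to 5 (-1.46), the latter under 1.5-fold with a pseudocount of 4 (-0.58). ZNF28 (-1.62) and ZNF468 (-1.31) overlap on one strand of chromosome 19, so reads may be shared, and ZNF468 too was under 1.5-fold with a pseudocount of 4 (-0.48). PPP1R3C, with 19 to 28 in TPC1 and 0 to 3 in D11, was below the filter on low values. The reference genes NEDD8 (-0.05) and TTC1 (-0.04) did not pass the test. Of 343 tested zinc finger genes 9 rose and 9 fell, against 2.89% and 1.95% of all genes, with 230 differences above 0 and 113 below. The split was not stable, with 3 higher and 11 lower after the GC correction, 2 and 6 with a pseudocount of 4, and 21 and 11 with limma-voom.

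**Figure D4:**
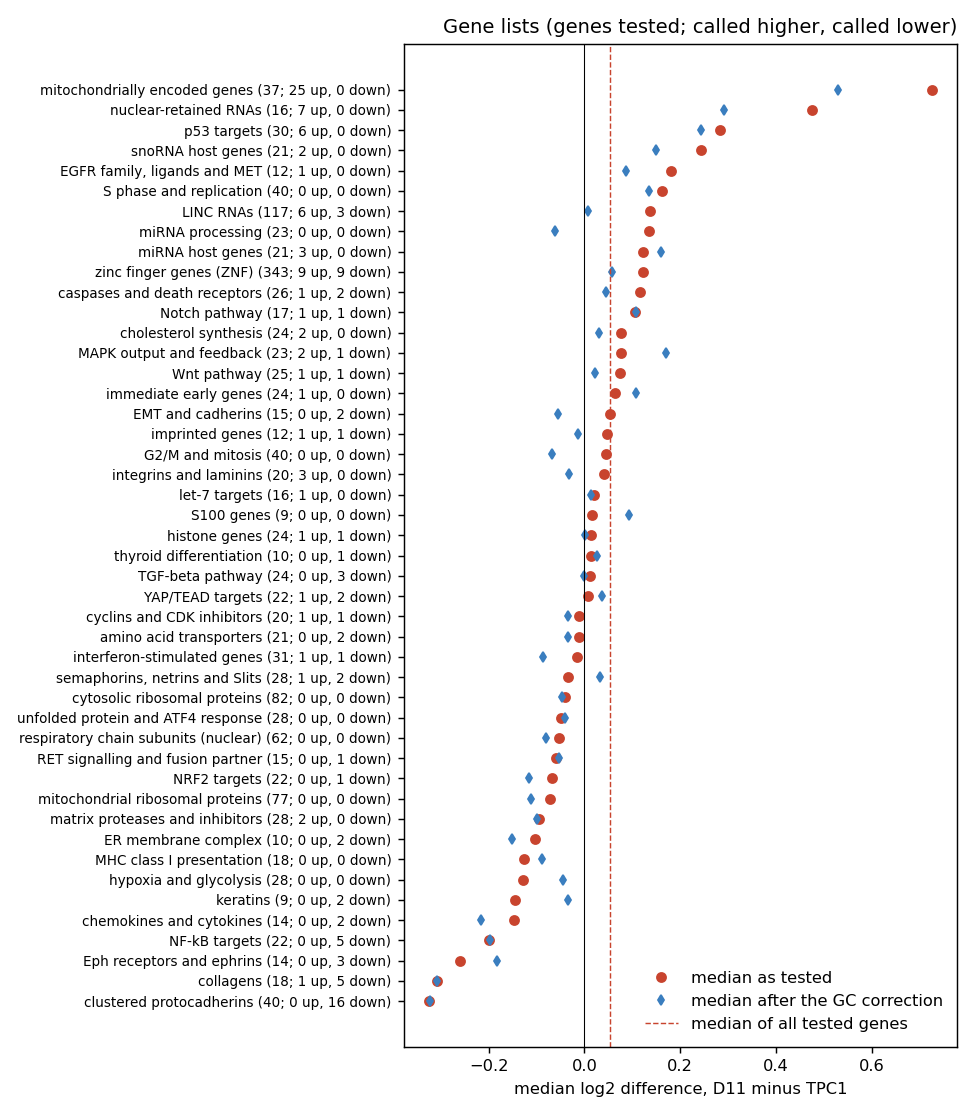
Median log2 difference of D11 minus TPC1 for each gene list with at least 5 tested genes, as tested (red circles) and after the GC correction (blue diamonds), with the numbers tested, called higher and called lower beside each name and the median of all genes as a dashed line. Mitochondrially encoded genes (0.73) and nuclear-retained RNAs (0.47) lie highest, clustered protocadherins (-0.32) and collagens (-0.31) lowest, and miRNA processing crosses 0 with the correction.

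The GC content of transcripts moved with the direction of the calls. With the tested genes cut into 5 equal groups by GC content, in the lowest group, with a median of 39.8%, 177 genes rose and 22 fell, and the median difference was 0.25. In the highest group, with a median of 61.7%, 24 rose and 78 fell, and the median was -0.12. Apart from the mitochondrial chromosome, the chromosome medians ran from -0.095 on chromosome 19 (7 rose and 30 fell) to 0.20 on chromosome 13. After the correction 270 genes rose and 315 fell, so that the share of rises among all calls went from 59.7% to 46.2%. Median-of-ratios scaling gave 340 and 363, or 48.4%. The part of GC content in any single gene was tested only through this correction.

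**Figure D5:**
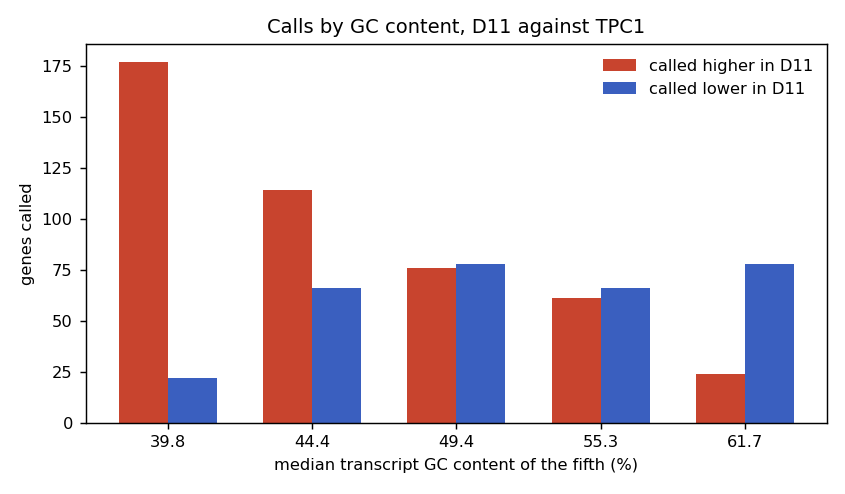
Number of genes called higher (red bars) and lower (blue bars) in D11 in each of 5 equal groups of the tested genes by transcript GC content, labelled with the group's median GC content in percent. Calls higher in D11 drop from 177 to 24 with rising GC content, while calls lower in D11 lie between 66 and 78 except in the lowest group, with 22.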

How the data were processed

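RNA-seq of 3 libraries each of TPC1, D11, WB1 and TD5 was analysed, grouped by the titles and genotypes in the labels. The authors prepared stranded mRNA libraries, sequenced pairs of reads, aligned them to GRCh38 with STAR 2.5.3a, counted genes of the Ensembl annotation with HTSeq 0.9.1 and scaled every library to 20000000 reads. In the deposited table the values are whole numbers that sum to 20009833 to 20014191 per library, so they are a score and not raw counts; the rounded-up steps between low values gave the reads per library, and floors of 3 reads cover counting error only. The strand setting of the counting is not given in the sources used here.

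Each library was divided by its sum and expressed per 1000000. Of 58302 genes, 16027 reached 1 on that scale in 3 or more libraries. After adding 1 and taking log2, limma 3.58.1 (R 4.3.3, trended variance) estimated 1 mean for each line from all 12 libraries. A gene was called at 1.5-fold or more with an adjusted p, by Benjamini and Hochberg, under 0.05. The GC correction removed, per library, a smooth trend of the values on transcript GC content (known for 99.1% of genes). Positions are from GENCODE on GRCh38. Python 3.11.15, numpy 2.4.6, pandas 2.3.3 and scipy 1.17.1 were used. On simulated D11 and TPC1 libraries 100% of 4-fold, 94% of 2-fold higher and 92% of 2-fold lower genes were called, with 3 unchanged genes called of 15971 tested. The simulated counts had a fixed dispersion and no trend with GC content or transcript length between libraries. They therefore cannot show how many calls in the real data come from such trends.

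The genes and lists were chosen with earlier results of these data known. Named genes are DICER1, the RT-qPCR and reference genes, the miRNA processing genes, the 15 largest called differences and 8 most abundant called genes in each direction, up to 3 called genes per list and direction, and 5 genes per direction that set D11 apart from every other line. Others were named after their values were seen, among them uncalled list members, MDM2, BBC3, RELB, COL16A1, CCNL2, MALAT1 and the genes at the floor. Limma-voom on estimated reads was added after the data were seen, in place of a planned count model. The alternatives changed the scaling, the pseudocount, the filter, the minimum fold or the libraries fitted, or added a replicate block.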

Additional observations from a re-analysis of the deposited data

Results flagged for a closer look

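DICER1 differed between D11 and TD5, and 33 named genes between D11 and both other clones, by a test of the difference itself, the limma contrasts of D11 against WB1 and TD5. They are given with their log2 values and no explanation. DICER1 was 0.58 higher in D11 than in TD5, and its difference of 0.24 from WB1 did not pass the test (adjusted p = 0.178). For each other gene the smaller of the differences from WB1 and TD5 is given. These contrasts share the D11 libraries with the comparison against TPC1.

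Among genes higher in D11 than in each other line, TENM2 differed by 2.59, CHD5 by 1.90, TRIM22 by 1.81, AC244153.1 by 1.44 and ZSCAN12 by 1.39. TP53INP1 differed by 0.70, EDA2R by 0.69, CCNE2 by 0.69, COL13A1 by 0.64 and ITGA11 by 0.60.

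Among genes lower in D11, TGFBI differed by -3.51, SLPI by -3.50, MYD88 by -3.34, NMRAL1 by -3.04, HTATIP2 by -2.61, STK33 by -2.28, COL5A2 by -2.26, TPD52 by -2.19 and MAL2 by -2.01. FGB differed by -1.90, COL4A4 by -1.28, BGN by -1.18, EMC1 by -1.18, COL7A1 by -1.07 and LINC01320 by -0.99. ZNF480 differed by -0.87, MRTO4 by -0.86, ZNF440 by -0.78, EPHA5 by -0.75, EPHB1 by -0.69, PCDHA4 by -0.68, PCDHAC2 by -0.67 and NTN1 by -0.64. Groups of 3 libraries were not tested for outlying samples.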

How the results depend on the processing

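Against 463 genes higher and 312 lower in D11, genes called higher numbered 775 with a pseudocount of 0.1, 153 with a pseudocount of 4, 270 after the GC correction with or without the replicate block, 308 after the transcript length correction, 766 with limma-voom, 3185 with no minimum fold and 31 at a minimum of 2-fold. Genes called lower numbered 185 with a filter of 5 per 1000000, 142 with a pseudocount of 4, 2144 with no minimum fold and 103 at a minimum of 2-fold. Leaving out 1 library gave 380 to 632 higher, the lowest without TPC1 replicate 3 and the highest without TPC1 replicate 1, and 284 to 320 lower. The share of rises among the calls was 59.7%, 46.2% after the GC correction, 45.5% after the length correction and 48.4% with median-of-ratios scaling. The cause of these shifts was not tested. Same-numbered D11 and TPC1 libraries deviated with correlations of -0.193, -0.127 and -0.127, so they share only a number, and the replicate block gave 460 higher and 312 lower. DICER1 kept its direction under every alternative, from -0.43 to -0.10, and passed an adjusted p of 0.05 with the GC (with or without the block) and length corrections and median-of-ratios scaling, at under 1.5-fold. Of the 151 named genes, 24 lost their call after the GC correction and 35 with a pseudocount of 4. Sign changes were limited to uncalled genes: RAN was at -0.0966 after the GC correction with or without the block, -0.0527 with median-of-ratios scaling, -0.0217 after the length correction, -0.0096 without TPC1 replicate 1 and -0.0051 without D11 replicate 2. PRKRA was at -0.1015, ZCCHC6 at -0.0932, TSNAX at -0.0336 and DDX5 at -0.0423 after the GC correction with or without the block, and TNRC6B, leaving out 1 library at a time, ran from -0.1619 to 0.0256. RAN ran from -0.0096 to 0.021 in the same way. The planned count model was not run. At this depth, differences among values at or under 3 reads were not detectable.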

Other observations

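Calls lay near each other on the chromosomes more often than uncalled genes lay near calls. Of 423 genes higher in D11 with a position, 63 (14.9%) had another such gene within 100 kb that did not overlap them, against 6.07% of other genes. Of 310 lower genes, 38 (12.3%) had one, against 4.69%. EMC1 with MRTO4 and CLDN1 with CLDN16 are such pairs, and duplicated genes and pseudogenes that can share reads are among them. The 15 lower genes of the protocadherin alpha cluster all count among the 38, through AC244517.5 and PCDHB2 nearby. They cannot be counted as separate genes, and the share of lower genes without this cluster was not computed. All these shares are descriptions with no test.

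By annotated class, 287 of 12540 protein-coding genes rose (2.29%) and 279 fell (2.22%), beside 2.89% and 1.95% of all genes. Of 2367 lncRNA genes 89 rose (3.76%) and 25 fell (1.06%). Among transcribed unprocessed pseudogenes 17 of 208 rose (8.17%) and 1 fell (0.481%).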
